A study of Homo sapiens with 18 samples.

Results

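The 9 genes described here belong to the clotting pathway and its cell-surface receptors, and were followed across the 2 prostate cancer cell lines of this series: F5, F3, TFPI, TFPI2, PROCR, PROS1, THBD, F2R and F2RL1. They were the 9 of 60675 listed genes whose Ensembl identifiers map to these symbols. The set was drawn up with results of these libraries known, because F5 was androgen-induced in LNCaP cells and because TFPI and PROCR responded to knockdown. The values of F5 for androgen in LNCaP, and those of TFPI and PROCR for knockdown, are therefore given below as a description with no test. The same holds for the comparisons between lines that contain those contrasts.

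Gene-level read counts came from poly(A) RNA of 18 libraries, 3 in each of 6 groups. LNCaP is an androgen-dependent line from a prostate cancer metastasis, and C4-2 is its castration-resistant derivative. Each line was grown with a scrambled siRNA and vehicle (siScr vehicle), with the scrambled siRNA and 1 nM R1881, a synthetic androgen (siScr R1881), or with siRNA pools against both histone demethylases KDM1A and KDM7A and 1 nM R1881 (dual knockdown), for 72 h in medium with charcoal-stripped serum. All 3 groups of a line thus carried siRNA, and the dual knockdown was measured here only in the presence of R1881. The cells are cultured epithelial lines, 1 line for each disease state, so a difference between LNCaP and C4-2 is a difference between 2 lines.

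Clotting starts when tissue factor, the product of F3, binds factor VII at a cell surface. Factor V, the product of F5, is the cofactor that lets factor Xa turn prothrombin into thrombin, and it is made mainly by the liver. TFPI blocks the tissue factor complex and early forms of the prothrombin-activating complex, and TFPI2 is a related Kunitz-type inhibitor. Thrombomodulin (THBD) and the endothelial protein C receptor (PROCR) together promote activation of protein C, which with its cofactor protein S (PROS1) cuts and silences activated factor V. The protease-activated receptors PAR1 (F2R) and PAR2 (F2RL1) turn cleavage by thrombin and by trypsin-like proteases, respectively, into signals inside the cell.

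Library totals ran from 3182604 to 20154243 counts, with a median of 18117641. The shallowest library was C4-2 siScr vehicle replicate 3, and the next lowest total was 10485096. Counts of that library differed from those of its replicates by a chi-square per gene of 18.3 and 18.6, and C4-2 dual knockdown replicate 1 differed from its replicates by 15.3 and 17.4. The other pairs of replicates gave 2.56 to 11.5. Without C4-2 dual knockdown replicate 1, which held the highest PROCR and the lowest F5 level of its group, the knockdown changes in C4-2 were -0.84 for F5, 1.73 for PROCR, 1.06 for TFPI, 0.56 for F2RL1 and -0.57 for F2R, near the values below, and F5, F2RL1 and F2R passed as they do below. Without C4-2 siScr vehicle replicate 3 the R1881 changes in C4-2 were 5.96 for F5, 1.75 for TFPI and 1.19 for F2RL1, which passed, and -0.20 for PROCR, -0.20 for F2R and 0.01 for PROS1, which did not. The 3 C4-2 siScr vehicle libraries are titled C4-2 although a cell line field names LNCaP. At 1911 genes that differ between the lines, 83% to 89.2% of the genes in these libraries lay nearer to the other C4-2 libraries, against 15.1% to 18.3% in the LNCaP siScr vehicle libraries. All 8 luminal prostate markers reached a mean of 1 CPM (normalised read counts, scaled to library size) in every group. The targets fell with the dual knockdown: KDM1A went from 108 ± 4.45 to 51.6 ± 2.86 CPM (SD, n = 3) in LNCaP and from 142 ± 3.22 to 16.4 ± 3.03 CPM in C4-2, and KDM7A from 59.7 ± 5.02 to 30.9 ± 2.93 CPM and from 121 ± 10.0 to 21.2 ± 2.88 CPM. The androgen-responsive KLK3 stood at 345 ± 13.9 CPM in siScr vehicle and 4537 ± 180 CPM in siScr R1881 in LNCaP, and at 21.6 ± 2.88 and 397 ± 19.4 CPM in C4-2. With dual knockdown KLK3 stood at 5400 ± 411 CPM in LNCaP and 329 ± 54.1 CPM in C4-2. Immune markers summed to 2.33 to 3.57 CPM in the C4-2 siScr vehicle libraries and to at most 0.933 CPM in the others, and their part in the results below was not tested.

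Of the 9 genes, 6 could be tested. F3, TFPI2 and THBD held 21, 12 and 19 counts in all 18 libraries together and were removed by the filter on low counts. F5 held 14988 counts, TFPI 26650, F2RL1 22518, F2R 5249, PROCR 2142 and PROS1 1413. The plot of levels by library shows the 6 measurable genes.

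**Figure D1:**
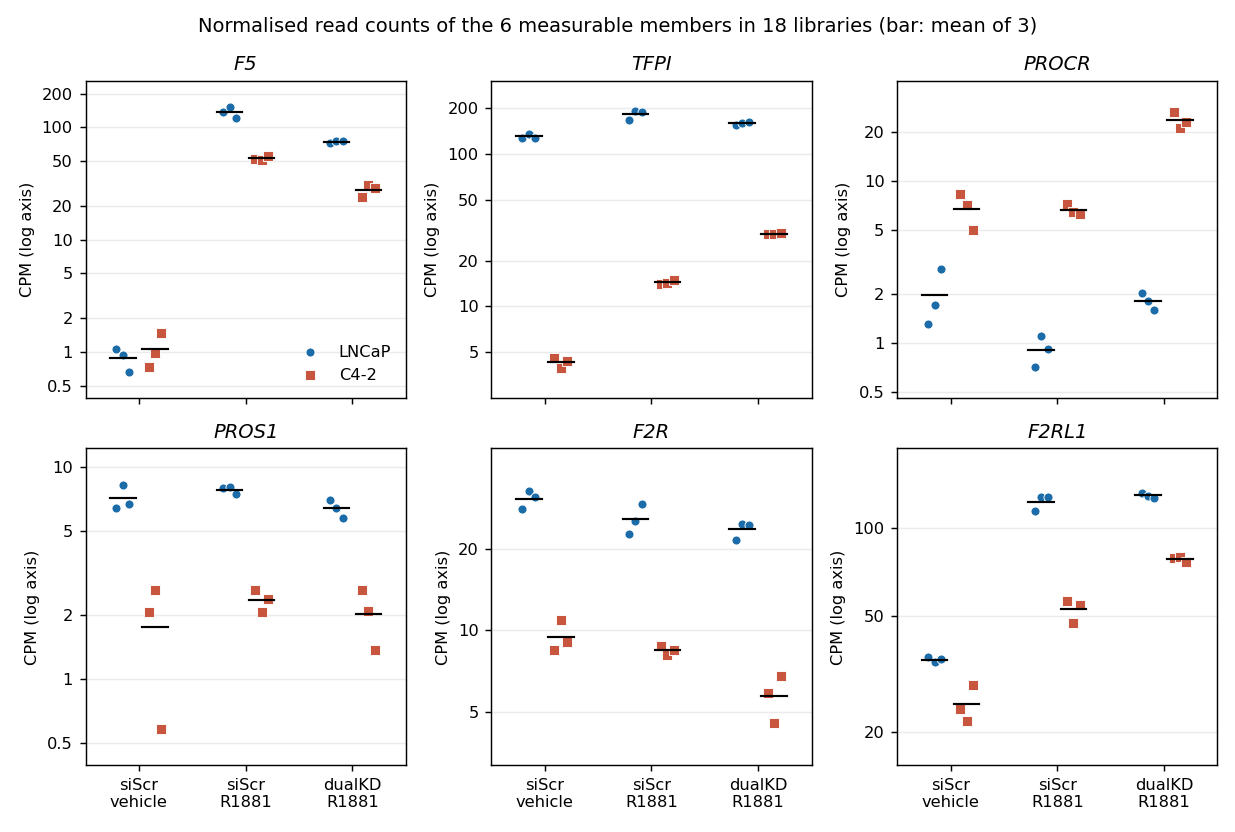
Normalised read counts (CPM, log axis) of F5, TFPI, PROCR, PROS1, F2R and F2RL1 in each library, by treatment on the horizontal axis, with LNCaP as circles, C4-2 as squares and a bar at the mean of 3 libraries. F5 stands near 1 CPM in both lines without R1881 and between 23.8 and 152 CPM with it, while TFPI separates the lines in every treatment.

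Positions are those of the count files (GRCh38, Ensembl release 83), and each count is summed over the exons of the gene. The files place F5 (ENSG00000198734) at chr1:169514166-169586588 on the minus strand. They place F3 (ENSG00000117525) at chr1:94529225-94541800 on the minus strand, TFPI (ENSG00000003436) at chr2:187464230-187565760 on the minus strand and TFPI2 (ENSG00000105825) at chr7:93885397-93890991 on the minus strand. The protein C genes are PROCR (ENSG00000101000) at chr20:35172073-35216240 on the plus strand, PROS1 (ENSG00000184500) at chr3:93873033-93974066 on the minus strand and THBD (ENSG00000178726) at chr20:23045633-23049741 on the minus strand. The receptor genes lie near each other, F2R (ENSG00000181104) at chr5:76716043-76735781 on the plus strand and F2RL1 (ENSG00000164251) at chr5:76818933-76835315 on the plus strand.

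Bases upstream of the annotated exons are shown for the androgen-induced genes F5 and F2RL1 and for PROCR, whose responses are described below. The bases are those before the start site in RefSeq (GRCh38.p14) that lie outside any exon annotated in the count files, read 5′ to 3′ on the strand of the gene. Capitals mark matches on either strand to the GC box GGGCGG or to the TATA box letters TATAA. The F5 stretch is chr1:169586589-169586731 on the minus strand, that of F2RL1 is chr5:76818780-76818932 on the plus strand, and that of PROCR is chr20:35171822-35172071 on the plus strand.
F5: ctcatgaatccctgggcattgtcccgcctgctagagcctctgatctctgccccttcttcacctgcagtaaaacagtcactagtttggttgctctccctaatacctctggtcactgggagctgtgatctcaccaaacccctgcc
F2RL1: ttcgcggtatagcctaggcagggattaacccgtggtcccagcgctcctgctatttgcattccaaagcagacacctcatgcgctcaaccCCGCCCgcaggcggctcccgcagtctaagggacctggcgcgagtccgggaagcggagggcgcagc
PROCR: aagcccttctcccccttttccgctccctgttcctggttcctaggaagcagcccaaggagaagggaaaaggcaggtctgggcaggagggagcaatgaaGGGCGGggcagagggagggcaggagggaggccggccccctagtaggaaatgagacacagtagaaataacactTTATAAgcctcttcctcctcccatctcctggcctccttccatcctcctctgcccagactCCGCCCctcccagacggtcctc
In the whole window from 250 bases before to 50 after the RefSeq start site, F5 held neither motif, F2RL1 held 3 GC boxes, 1 of them in the stretch shown, and PROCR held 2 GC boxes and a TTATAA run that reads as TATAA on both strands. A GC box is found in 44.6% of 27305 such windows and TATAA in 21.1%, and a match says only that the letters are there.

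F5 changed from a barely detected gene to an abundant one with R1881. In LNCaP siScr vehicle the 3 libraries held 1.05, 0.928 and 0.659 CPM, from 12, 20 and 12 counts. With R1881 they held 137, 152 and 121 CPM, so that the groups were far apart. The ratio of means was 155-fold, and the log2 fold change of 7.28 ± 0.14 (SE) placed F5 19th of 15032 genes with a mean of at least 1 CPM. This contrast chose the gene, and the values are descriptive. In RNA from whole cultures, a change in the share of cells that express a gene and a change in its RNA per cell cannot be told apart.

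In C4-2, F5 started at a similar level and reached a lower one. The siScr vehicle libraries held 0.725, 0.974 and 1.46 CPM, from 14, 17 and 5 counts, and the siScr R1881 libraries 52.6, 51.4 and 55.3 CPM. Every R1881 library was thus above every vehicle library. The rise was 50.5-fold in the means and 5.86 ± 0.19 (SE) on the log2 scale (edgeR quasi-likelihood test, adjusted p = 8.66e-12), 20th of 14862 genes. The response in C4-2 was smaller than in LNCaP by 1.43 ± 0.33 on the log2 scale, which contains the contrast that chose the gene and was not tested. The vehicle levels of the lines overlapped.

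Dual knockdown lowered F5 in both lines while leaving it well above the vehicle level. In LNCaP the dual knockdown libraries held 72.2, 76.2 and 76.2 CPM, all below the 3 siScr R1881 libraries, a change of -0.85 ± 0.08 (SE, adjusted p = 4.66e-05 by edgeR). In C4-2 they held 23.8, 30.7 and 28.7 CPM, again all below siScr R1881, a change of -0.94 ± 0.12 (adjusted p = 6.53e-05). Of the gain that R1881 gave, 54.6% was left in LNCaP (52.6% to 55.6% over the 3 libraries) and 51.3% in C4-2 (43.7% to 57.0%). The difference between the lines in the knockdown effect was -0.07 ± 0.13, with an interval from -0.33 to 0.19 (adjusted p = 0.801). The LNCaP test uses the siScr R1881 libraries in which F5 was first seen to be high, so it is not independent of the choice of the gene.

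TFPI, the inhibitor of the tissue factor pathway, had the largest difference between the lines in siScr vehicle of the 6 measurable genes. LNCaP siScr vehicle libraries held 128, 136 and 127 CPM, and those of C4-2 held 4.61, 3.95 and 4.37 CPM. C4-2 was 30.2-fold lower in the means, a log2 difference of -4.92 ± 0.09 (SE, adjusted p = 1.39e-20, edgeR). With R1881 the LNCaP libraries rose to 168, 191 and 187 CPM, a change of 0.46 ± 0.06 (adjusted p = 7.75e-06), and the C4-2 libraries to 14.1, 14.3 and 14.9 CPM, a change of 1.74 ± 0.12 (adjusted p = 4.35e-08). In both lines all R1881 libraries were above all vehicle libraries. The R1881 response was larger in C4-2 by 1.26 ± 0.12 on the log2 scale (adjusted p = 9.04e-08), although the level reached there remained 12.6-fold below that of LNCaP.

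After dual knockdown TFPI stood at 154, 160 and 163 CPM in LNCaP, all below the siScr R1881 libraries. In C4-2 it stood at 30.0, 29.9 and 30.3 CPM, all above them and close together. The log2 fold changes were -0.17 ± 0.06 (SE) and 1.05 ± 0.10, values given as a description because they chose the gene. The LNCaP value moved to -0.07 when a trend of fold change with GC content was removed, an alternative added after the data were seen. The gap between the lines narrowed from 12.6-fold with R1881 alone to 5.30-fold with dual knockdown. The 2 lines also differ in how far the targets fell, as given above for KDM1A and KDM7A, and the part of that difference in these values was not tested. TFPI shares 1.01% of its exonic bases with an antisense gene, and the counting options given in the sources used here name no strand setting.

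PROCR, the receptor that presents protein C, ran the other way between the lines. LNCaP siScr vehicle libraries held 1.31, 1.72 and 2.86 CPM and siScr R1881 libraries 0.711, 1.10 and 0.919 CPM. The 2 groups did not overlap, and the change was -1.16 ± 0.32 (SE, adjusted p = 0.00718, edgeR), on 104 counts against 44. The R1881 tests of PROCR and TFPI in both lines, and of the difference between lines, use the siScr R1881 libraries of the knockdown contrasts that chose these genes, so they are not independent of that choice. Without LNCaP siScr vehicle replicate 3, the highest of its group, the change was -0.78 and the adjusted p was 0.0731. In C4-2 the siScr vehicle libraries held 8.23, 7.04 and 4.95 CPM and the siScr R1881 libraries 7.20, 6.46 and 6.24 CPM, which overlapped, with a change of -0.11 ± 0.15 and an interval from -0.42 to 0.19 (adjusted p = 0.621). The R1881 response differed between the lines by 1.06 ± 0.34 (adjusted p = 0.0384), and that call did not hold in 9 of 18 fits without 1 library, nor in the fit of only the groups compared (adjusted p = 0.0703). Those 9 were LNCaP siScr vehicle replicate 3, LNCaP siScr R1881 replicates 1 and 3, LNCaP dual knockdown replicate 2, C4-2 siScr vehicle replicates 2 and 3 and C4-2 siScr R1881 replicates 1, 2 and 3, with adjusted p-values up to 0.184.

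PROCR was higher after dual knockdown in both lines. In LNCaP the libraries held 2.03, 1.82 and 1.60 CPM, about the vehicle level and all above siScr R1881, with a log2 fold change of 1.02 ± 0.32 (SE). In C4-2 they held 26.5, 21.3 and 22.9 CPM, all above both other C4-2 groups, with a log2 fold change of 1.82 ± 0.14 and a ratio of means of 3.55. These contrasts chose the gene and carry no test. The C4-2 dual knockdown group had the highest PROCR level of the 6 groups and the LNCaP siScr R1881 group the lowest. In the same C4-2 libraries the 5 fibroblast markers, nearly all COL1A1, summed to 17.5 to 24.2 CPM in siScr R1881 and to 26.6 to 36.3 CPM with dual knockdown, with DCN at 0 counts there. Their part in the PROCR values was not tested. PROCR shares 12.9% of its exonic bases with an antisense gene that held 2 counts in all.

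PROS1, the protein S gene, differed between the lines, and neither treatment passed the test for it. LNCaP libraries lay between 5.76 and 8.21 CPM and C4-2 libraries between 0.583 and 2.64 CPM over all 3 treatments, with no overlap. The lowest of these, C4-2 siScr vehicle replicate 3, rested on 2 counts. The R1881 changes were 0.11 ± 0.14 in LNCaP (SE, adjusted p = 0.552) and 0.22 ± 0.33 in C4-2 (adjusted p = 0.669), and their intervals ran from -0.17 to 0.39 and from -0.44 to 0.87. The dual knockdown changes were -0.28 ± 0.14 (adjusted p = 0.213) and -0.22 ± 0.32 (adjusted p = 0.667).

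The tissue factor and thrombomodulin genes were at the edge of detection. F3 held 4, 9 and 6 counts in the LNCaP groups (siScr vehicle, siScr R1881, dual knockdown) and 2, 0 and 0 in those of C4-2. A count of 0 allows up to 0.0573 CPM in C4-2 siScr R1881 and 0.0566 CPM in C4-2 dual knockdown, taking 3 counts over the group as the limit of counting error. THBD held 0, 1 and 0 counts in LNCaP and 8, 3 and 7 in C4-2. TFPI2 held 3, 1 and 0 counts in LNCaP and 2, 1 and 5 in C4-2, the last 5 all in 1 library. None of the 3 genes exceeded 0.328 CPM in any library, so no response to R1881 or to knockdown was detectable at this depth.

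F2RL1, the PAR2 gene, rose with R1881 in both lines. The LNCaP siScr vehicle libraries held 36.1, 34.7 and 35.5 CPM and the siScr R1881 libraries 114, 127 and 127 CPM, a change of 1.77 ± 0.06 (SE, adjusted p = 3.86e-13, edgeR). The C4-2 siScr vehicle libraries held 24.1, 21.9 and 29.1 CPM and the siScr R1881 libraries 56.3, 47.2 and 54.5 CPM, a change of 1.11 ± 0.11 (adjusted p = 1.68e-06). In each line every R1881 library was above every vehicle library. The response was smaller in C4-2 by a log2 difference of -0.67 ± 0.12 (adjusted p = 0.000361).

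Under dual knockdown F2RL1 was not lower than in siScr R1881 by its fitted change in either line. In LNCaP it stood at 131, 129 and 127 CPM, overlapping siScr R1881, with a change of 0.09 ± 0.06 and an interval from -0.03 to 0.21 (SE, adjusted p = 0.344, edgeR). In C4-2 it stood at 78.8, 79.2 and 76.5 CPM, all above siScr R1881, a rise of 0.57 ± 0.10 (adjusted p = 0.000827). The knockdown effect differed between the lines by 0.50 ± 0.11 (adjusted p = 0.00414). As a share of the R1881 gain, the dual knockdown level was 107% in LNCaP and 192% in C4-2, where F5 kept 54.6% and 51.3%. The F2RL1 and F5 values come from the same libraries and the difference between the genes was not tested.

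F2R, the thrombin receptor PAR1, fell slightly in single contrasts. LNCaP siScr vehicle libraries held 28.1, 32.7 and 31.1 CPM and siScr R1881 libraries 22.6, 25.3 and 29.1 CPM, which overlapped, with a change of -0.28 ± 0.10 (SE, adjusted p = 0.0257, edgeR). DESeq2 gave -0.24 with an adjusted p of 0.0974, and the edgeR call was lost without siScr vehicle replicate 2 or 3 or siScr R1881 replicate 1 or 2, with adjusted p-values up to 0.128. In C4-2 the siScr vehicle libraries held 8.49, 10.9 and 9.03 CPM and the siScr R1881 libraries 8.74, 8.09 and 8.45 CPM, a change of -0.18 ± 0.16 (adjusted p = 0.442).

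With dual knockdown F2R stood at 21.5, 24.8 and 24.5 CPM in LNCaP, a change of -0.10 ± 0.10 (SE, adjusted p = 0.533, edgeR). In C4-2 it stood at 5.88, 4.56 and 6.79 CPM, all below siScr R1881, a change of -0.56 ± 0.16 (adjusted p = 0.0228). That call was lost when any of the 3 C4-2 siScr R1881 libraries or dual knockdown replicate 2 was left out, with adjusted p-values up to 0.105. The difference between the lines in the knockdown effect was -0.44 ± 0.19 (adjusted p = 0.147).

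**Figure D2:**
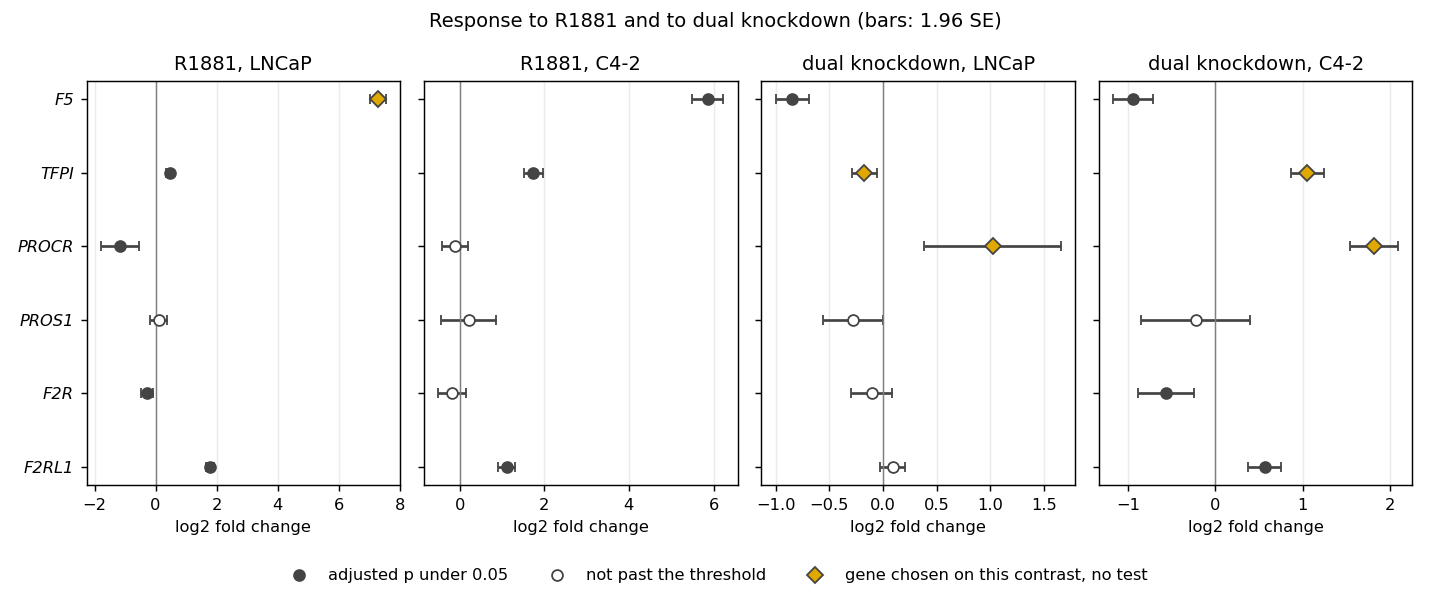
Log2 fold changes of the 6 measurable genes for R1881 against vehicle and for dual knockdown against siScr R1881 in each line, with bars for the 95% interval, filled circles for an adjusted p under 0.05, open circles for values that did not pass and diamonds for genes chosen on that contrast, which have no test. The scale of the horizontal axis differs between panels, and F5 has the largest R1881 value of the 6 in both lines and lies below 0 for dual knockdown in both.

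Counted over the set, R1881 in LNCaP passed the test for 4 of the 5 genes tested, TFPI and F2RL1 higher and PROCR and F2R lower, where 46.6% of 17162 genes passed. In C4-2 it passed for 3 of 6 genes, F5, TFPI and F2RL1, all higher, where 32.8% of 16965 genes passed. Dual knockdown passed for 1 of 4 genes in LNCaP (F5, lower), where 14.2% of all genes passed, and for 3 of 4 in C4-2 (F2RL1 higher, F5 and F2R lower), where 23.5% passed. The R1881 response differed between the lines for 3 of 5 genes (14% of 18684 genes) and the knockdown response for 1 of 4 (10.9%). The R1881 contrast in LNCaP and both knockdown contrasts were used to choose members, and the differences between lines contain those contrasts. The 3 genes whose R1881 response differed were TFPI, PROCR and F2RL1. Of these, the PROCR call did not hold in 9 of 18 fits with a library left out. Nothing is read from any of these counts. The knockdown and R1881 contrasts of a line share its siScr R1881 libraries.

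Between the lines all 5 genes tested differed in siScr vehicle, TFPI, PROS1, F2R and F2RL1 lower in C4-2 and PROCR higher, where 58.9% of 18684 genes passed. These 5 also differed in siScr R1881, where 58.3% passed, a count that includes TFPI and PROCR in libraries used to choose them, and all 4 genes tested differed in the dual knockdown groups, where 57.6% passed. A high share is thus the rule between these lines. Beside TFPI, C4-2 was lower for PROS1 by a log2 difference of -1.76 ± 0.25 (SE, adjusted p = 2.69e-06, edgeR), for F2R by -1.68 ± 0.13 (adjusted p = 6.95e-10) and for F2RL1 by -0.55 ± 0.09 (adjusted p = 1.49e-05) in siScr vehicle. PROCR was higher there by 1.82 ± 0.22 (adjusted p = 3.00e-07). In none of these did a library of one line overlap the other line, and the share of all genes without such overlap was not computed.

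R1881 widened the F2RL1 gap to -1.22 ± 0.08 (SE, adjusted p = 1.32e-11, edgeR). The PROCR difference in siScr R1881 was 2.88 ± 0.24 and that of TFPI -3.66 ± 0.07, values from libraries that chose these genes and given as a description. F5, whose vehicle libraries overlapped between the lines, was 2.57-fold lower in C4-2 with R1881. In the dual knockdown groups F5 was lower in C4-2 by -1.43 ± 0.10 (adjusted p = 4.15e-11), F2R by -2.04 ± 0.13 (adjusted p = 2.66e-11), PROS1 by -1.64 ± 0.23 (adjusted p = 3.67e-06) and F2RL1 by -0.72 ± 0.08 (adjusted p = 4.37e-08). PROCR reached 13 times its LNCaP level there, a value with no test.

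**Figure D3:**
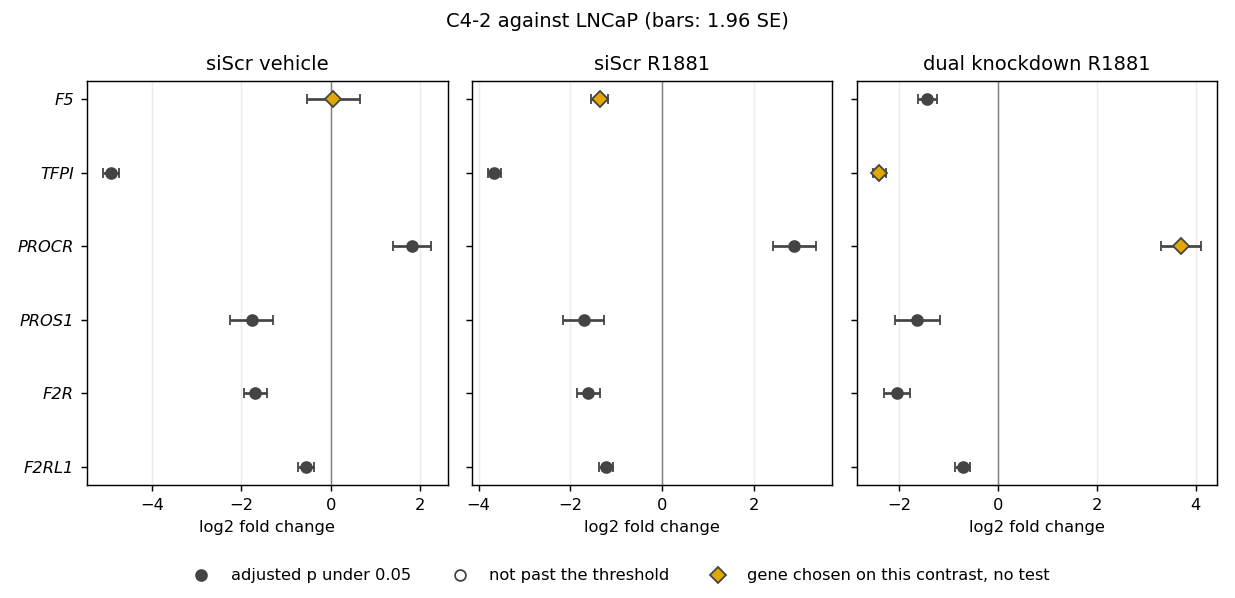
Log2 difference between C4-2 and LNCaP for the 6 measurable genes in siScr vehicle, siScr R1881 and dual knockdown, with bars for the 95% interval, filled circles for an adjusted p under 0.05 and diamonds for values with no test. PROCR is the only one of the 6 to lie well above 0, and TFPI moves from -4.92 through -3.66 to -2.41 across the treatments.

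TFPI, PROCR and THBD are best known from endothelium. The 6 endothelial markers summed to 13.6 to 20.9 CPM in the LNCaP libraries and to 5.83 to 10.7 CPM in those of C4-2, 1 or 2 of the 6 reached 1 CPM in a group. VWF, which is also a clotting factor of the lists below, made up most of that sum, with group means of 13.3 to 18 CPM in LNCaP and 7.50 to 9.18 CPM in C4-2. EMCN reached 1 CPM in LNCaP siScr vehicle only, and PECAM1 was at 0 counts in 4 of the 6 groups. CDH5 did not exceed 0.344 CPM in any library. The part of such cells in the levels above was not tested.

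Levels of different genes can be set side by side only per length, here as CPM per kilobase of annotated exon. In LNCaP with R1881 the order was F2RL1 at 41.4 ± 2.5 (SD, n = 3), F5 at 19.1 ± 2.19, TFPI at 15.5 ± 1.06, F2R at 6.32 ± 0.81, PROS1 at 1.76 ± 0.077 and PROCR at 0.536 ± 0.114. F5 and TFPI were thus neighbours whose levels differed by little more than their SDs combined. In C4-2 with R1881 the order was F2RL1 at 17.8 ± 1.62, F5 at 7.42 ± 0.277, PROCR at 3.91 ± 0.297, F2R at 2.07 ± 0.0801, TFPI at 1.23 ± 0.0334 and PROS1 at 0.535 ± 0.0633. Dual knockdown in C4-2 moved PROCR, at 13.9 ± 1.56, above F5, at 3.87 ± 0.497, and left F2RL1 first at 26.4 ± 0.504. Exonic lengths ran from 1696 bases for PROCR to 11714 for TFPI, and bases of transcripts that these cells do not make lower a value on this scale.

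Across the 18 libraries the level of F5 ran most closely with that of F2RL1 among the members (Pearson r = 0.896 on log2 CPM), and PROCR ran most strongly against F2R (r = -0.920). Among 14949 genes with a mean of at least 1 CPM, the 5 most like F5 were FKBP5, ELOVL5, OR7E47P, HPGD and MPZL1 (r from 0.994 to 0.996). Those most like TFPI were PCMTD1, EPHX2, PPP3CA, RCN1 and IMPACT (0.985 to 0.993), and those most like PROCR were WDR77, MICB, DPYSL3, CARS1 and GM2A (0.966 to 0.981). These points share 2 lines and 6 groups, so r describes the pattern over groups and has no p.

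The other genes of haemostasis were taken in 5 fixed lists, which include the members that belong to them. Some low genes passed the count filter only through the groups where they are high, and their calls are descriptions. These were F13A1 and SERPINE2 in C4-2, F10 and SERPIND1 in LNCaP, SERPINF2 and ANXA2 in both lines, and FGA and PDIA2 between the lines. Of 17 clotting factors, 7 passed the count filter in LNCaP and 8 in C4-2. Under R1881, 1 of the 6 tested in LNCaP rose (VWF) and 1 fell (F10), and in C4-2 F5 and F13A1 rose and F8 and F10 fell of 8 tested, where 46.6% and 32.8% of all genes passed. The list medians were 0.20 and -0.02 on the log2 scale, where all genes tested had -0.04 and -0.02. F13A1, the chain of factor XIII that cross-links fibrin, held 0 counts in all 3 C4-2 siScr vehicle libraries, 0.715, 0.787 and 0.979 CPM with R1881 and 3.74, 4.39 and 3.74 CPM with dual knockdown. The ratio of the R1881 group to the vehicle group, 43 counts against 0, has a 95% counting interval that starts at 8.58. With dual knockdown F13A1 was higher still, by 2.25 ± 0.27 (SE) on the log2 scale, a value given as a description with no test. F13A1 is also known from platelets and megakaryocytes, whose 5 markers summed to 1.98 to 2.87 CPM in C4-2 siScr R1881 and to 5.14 to 5.65 CPM with dual knockdown, with PF4 and PPBP at 0 counts in every group. Their part in the F13A1 values was not tested. With dual knockdown F12 rose and F5 fell among 7 tested in LNCaP, and F13A1 and KLKB1 rose and F5 fell among 8 in C4-2, where 14.2% and 23.5% of all genes passed. KLKB1, the plasma prekallikrein gene, had a change of 1.27 ± 0.44 (adjusted p = 0.0485), a call lost in 6 of 9 fits with a library left out (all but those without siScr vehicle replicate 2 or 3 or dual knockdown replicate 2) with adjusted p-values up to 0.185, and in DESeq2 (adjusted p = 0.127).

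Of 12 anticoagulant genes, 5 were tested for R1881 in LNCaP. TFPI and SERPIND1 rose and PROCR and GAS6 fell, where 46.6% of all genes passed, with a list median of 0.11 against -0.04 for all genes. SERPIND1, which encodes the thrombin inhibitor heparin cofactor II, went from 0.391 ± 0.118 to 2.00 ± 0.63 CPM (SD, n = 3), a log2 fold change of 2.27 ± 0.35 (SE). In C4-2 it stood at 0.790 ± 0.336 and 0.621 ± 0.258 CPM, and its response there was smaller by a log2 difference of -2.42 ± 0.56, a value given with no test. GAS6, a vitamin K-dependent relative of protein S, fell by 1.02 on the log2 scale in LNCaP (adjusted p = 5.03e-07). Of 6 tested in C4-2, TFPI rose and GAS6 fell, where 32.8% of all genes passed. Beside TFPI and PROCR, none of the 3 tested in LNCaP or the 4 tested in C4-2 passed for dual knockdown, where 14.2% and 23.5% of all genes passed.

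Of 12 fibrinolysis genes, SERPINE2, SERPINF2 and ANXA2 rose and PLGRKT fell with R1881 among 7 tested in LNCaP, where 46.6% of all genes passed, with a list median of 0.01 against -0.04. SERPINE2, which encodes the serpin protease nexin-1, went from 1.19 ± 0.403 to 4.44 ± 0.902 CPM (SD, n = 3; log2 change 1.87 ± 0.24, adjusted p = 7.83e-06, edgeR). ANXA2, a plasminogen-binding surface protein, had a log2 change of 1.47 ± 0.37 (SE), given as a description with no test. Its LNCaP siScr vehicle libraries held 2, 17 and 19 counts. SERPINF2 and ANXA2 rose among 5 tested in C4-2, where 32.8% of all genes passed. Dual knockdown passed for none of 7 genes in LNCaP and for SERPINE2, higher, among 5 in C4-2, where 14.2% and 23.5% of all genes passed. SERPINE2 held 5, 6 and 1 counts in C4-2 siScr R1881 and 14, 16 and 15 with dual knockdown. In the fit of all 18 libraries, the difference between the lines in its knockdown response was 1.54 ± 0.50 (SE) on the log2 scale. That value is given as a description with no test, and it ran from 1.13 to 1.93 over the 18 fits with a library left out.

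The receptor list held, beside the receptors, proteases linked to PAR2 cleavage and the protease inhibitor genes SPINT1 and SPINT2. TMPRSS2, an androgen-responsive membrane protease, rose with R1881 from 68.0 ± 2.23 to 1206 ± 71.8 CPM (SD, n = 3) in LNCaP, by 4.13 ± 0.07 (SE, adjusted p = 1.51e-17, edgeR), and from 71.2 ± 9.57 to 621 ± 21.8 CPM in C4-2, by 3.11 ± 0.10 (adjusted p = 9.91e-12). With dual knockdown TMPRSS2 stood at 1264 ± 50.1 CPM in LNCaP and 716 ± 68.5 CPM in C4-2. KLK4, a secreted prostate serine protease, rose by 1.44 ± 0.06 in LNCaP (adjusted p = 6.19e-12). In all, 4 of 9 genes rose (F2RL1, TMPRSS2, HPN and KLK4) and 2 fell (F2R and SPINT2) with R1881 in LNCaP, where 46.6% of all genes passed, and 3 rose (F2RL1, TMPRSS2 and KLK4) and 1 fell (PRSS8) in C4-2, where 32.8% passed. The list medians were 0.20 and 0.06, against -0.04 and -0.02 for all genes. The R1881 responses of TMPRSS2, KLK4, PRSS8 and F2RL1 were lower in C4-2 than in LNCaP, with a log2 difference of -1.04 ± 0.12 for TMPRSS2 (adjusted p = 1.48e-06). With dual knockdown 4 of 9 rose in LNCaP (ST14, HPN, PRSS8, SPINT2) and none fell, and in C4-2 F2RL1 and KLK4 rose and F2R fell, where 14.2% and 23.5% of all genes passed.

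The last list covered the making and export of clotting factors. LMAN1 and MCFD2, which together carry factors V and VIII out of the endoplasmic reticulum, rose with R1881 in both lines, among 4 of 10 genes that rose in LNCaP (with VKORC1L1 and FURIN) and 2 of 8 in C4-2, and no gene of the list fell. Over all genes 46.6% and 32.8% passed in either direction, a larger share than in this list. The list medians were 0.16 and 0.08, against -0.04 and -0.02 for all genes. With dual knockdown 1 of 10 genes rose in LNCaP (FURIN) and 3 of 8 in C4-2 (GGCX, LMAN1 and FURIN), and none fell, where 14.2% and 23.5% of all genes passed. FURIN, a proprotein convertase, stood at 10.4, 12.4 and 11.6 CPM in C4-2 siScr R1881 and at 43.6, 34.0 and 35.5 CPM with dual knockdown, a rise of 1.71 ± 0.12 (SE, adjusted p = 6.27e-07, edgeR), larger than in LNCaP by 1.24 ± 0.16 (adjusted p = 4.11e-05). The plot of the 5 lists shows these values together.

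**Figure D4:**
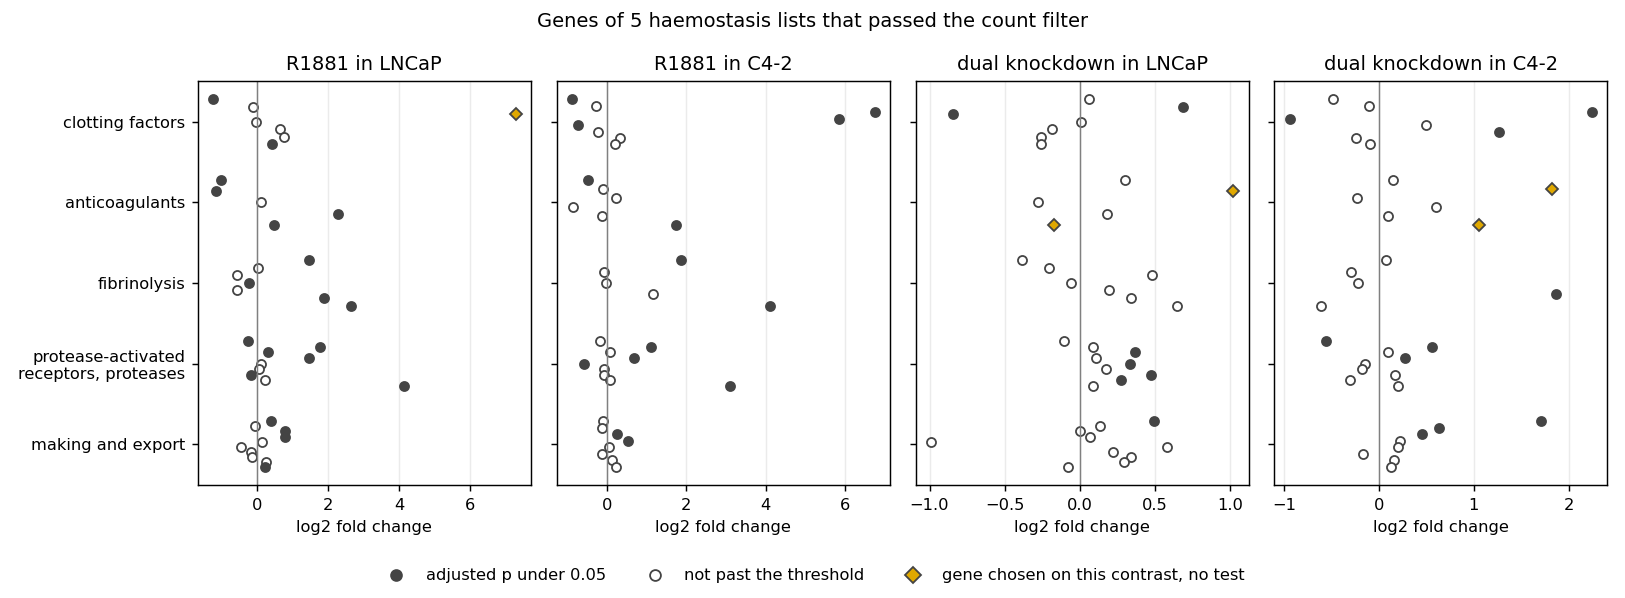
Log2 fold changes of the genes of 5 haemostasis lists that passed the count filter, for R1881 and for dual knockdown in each line, with filled circles for an adjusted p under 0.05, open circles for values that did not pass and diamonds for genes chosen on that contrast. The scale differs between panels, the vertical offset within a list only separates genes, and the right-most R1881 values are F5 in LNCaP and F13A1, a fitted value against vehicle libraries at 0 counts, in C4-2.

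Between the lines in siScr vehicle, the listed genes other than members that passed a log2 difference of 1 with the largest sizes were F12 and F10, higher in C4-2, and FGA, PDIA2, SERPINE2, PLGRKT, FURIN and ANXA2, lower. Factor XII (F12) stood at 16.2 ± 2.78 CPM in LNCaP and 44.8 ± 7.22 in C4-2 (SD, n = 3; log2 difference 1.5 ± 0.16, adjusted p = 4.24e-08, edgeR). PLGRKT, a plasminogen receptor, stood at 73.1 ± 2.25 and 16.3 ± 2.84 CPM, and FURIN at 42.5 ± 3.12 and 12.1 ± 0.88. FGA, SERPINE2 and PDIA2 rested on 3, 4 and 8 counts in the C4-2 group. The ANXA2 call was lost in 3 of 18 fits with a library left out (LNCaP siScr vehicle replicate 2 or 3, or C4-2 siScr vehicle replicate 1), with adjusted p-values up to 0.215, and under the replicate block.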

How the data were processed

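Per the study's methods and the file headers, the authors sequenced poly(A) RNA as paired reads, trimmed them with TrimGalore, aligned them to GRCh38 with STAR and counted read pairs per gene with featureCounts 1.5.0-p1 and Ensembl release 83, and deposited raw counts, 1 file per library. Everything else was computed here. Symbols came from a gene name table and GENCODE release 29 (41706 genes matched). Per line, the 9 libraries were fitted with edgeR 4.0.16 (R 4.3.3) under TMM scaling, filterByExpr (minimum count 10, total 15) and the quasi-likelihood test with Benjamini-Hochberg adjustment at 0.05, with a no-intercept design of 3 groups. Comparisons between lines used all 18 libraries. CPM values are TMM-scaled over the 18 libraries. SE is the size of the log2 fold change over the root of the F statistic, intervals are 1.96 SE, and likeness used log2(CPM + 0.5). An exact permutation test of 3 against 3 libraries cannot go below p = 0.1, so overlap of libraries is stated in its place. The fits were tested on simulated counts, where 85 of 98 genes changed by 1.5 on the log2 scale and 98 of 98 changed by 3 were recovered for R1881 in LNCaP, and 66 of 97 and 89 of 98 for the difference between lines in the R1881 response, 69 of 97 and 91 of 98 for that in the knockdown response.

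The members and lists were chosen with earlier results of these data known. Beside the members, the text names list genes with a mean of at least 1 CPM that passed the test and a log2 fold change of 1 (at most 8 per comparison), the 5 genes most like F5, PROCR and TFPI, and KDM1A, KDM7A and KLK3 as checks. The rule also took the nearest 2 tested genes on each side of F5, PROCR and TFPI, given mostly as counts and ranges. Other list genes are named only as calls within a count. Alternatives were RLE factors, DESeq2 1.42.0, no filter, a stricter filter at 1 CPM, a fit of the compared groups alone, a replicate block, each library left out and, added after the data were seen, removal of a GC trend. Labels do not say whether libraries came from separate cultures, so p-values measure only the spread between these libraries. Counting intervals cover counting error only. Other treatments of the study are not analysed here. The vehicle is named as DMSO in one part of the study's methods and as ethanol in another. Some results are not reported here.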

Additional observations from a re-analysis of the deposited data

Results flagged for a closer look

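Of 5 members tested for the R1881 response, 3 differed between the lines, where 14% of 18684 genes passed. Of 4 tested for the knockdown response, 1 differed, where 10.9% of all genes passed. The R1881 response of TFPI was larger in C4-2 than in LNCaP by 1.26 on the log2 scale, that of PROCR by 1.06 and that of F2RL1 by -0.67, that is, smaller. The dual knockdown response of F2RL1 was larger in C4-2 by 0.50. The interaction test of edgeR gave adjusted p-values of 9.04e-08, 0.0384, 0.000361 and 0.00414. The TFPI and PROCR tests rest on the siScr R1881 libraries of the knockdown contrasts that chose these genes, so they are not independent of that choice. The PROCR value rests on 44 counts in LNCaP siScr R1881 and did not hold in 9 of 18 fits with a library left out.

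For the dual knockdown response of TFPI, all 3 LNCaP libraries lay below siScr R1881 and all 3 C4-2 libraries lay above it. The LNCaP change was small, a ratio of means of 0.875 against 2.08 in C4-2. It was smaller still with the GC trend removed, as given above. The log2 difference between the 2 responses was 1.25. This difference was not tested, since these contrasts chose the gene.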

How the results depend on the processing

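Over 1134 recomputed values of the members, 1095 kept their direction and side of the threshold or, where untested, moved by less than 1 SD; 20 lost a call (F2R for R1881 in LNCaP and for knockdown in C4-2, PROCR for R1881 in LNCaP and for its difference between lines), 15 changed sign, 4 untested ones moved and none gained a call. With a library left out, the number of members changed by R1881 in LNCaP ran from 2 to 4, with 2 without LNCaP siScr vehicle replicate 3. Values that changed sign were small and either uncalled or untested. Leaving out a library gave -0.20 to 0.039 for PROCR and R1881 in C4-2. For the difference between lines in the R1881 response it gave -0.039 to 0.22 for F2R and -0.11 to 0.32 for PROS1, and in the knockdown response -0.14 to 0.28 for PROS1 and -0.16 to 0.039 for F5. For F5 in siScr vehicle between lines it gave -0.11 to 0.30. Removing the GC trend gave -0.035 and -0.029 for the 2 PROS1 differences and moved the untested TFPI values to -0.07 for knockdown in LNCaP and 1.14 for its difference between lines. The cause was not tested. The replicate numbers only name libraries: same-numbered libraries correlated by -0.09 to 0.16, and in no comparison did every library correlate best with its own number. With the replicate block the counts of members changed were the same in the 9 comparisons, F5 for knockdown in LNCaP was -0.84 (adjusted p = 1.05e-05, edgeR), and no member's call changed. Of the other genes named, the block took the calls of KLKB1 and of ANXA2 (between lines), and the SERPINE2 knockdown difference between lines, given with no test, also fell short of the threshold. Depth limits F3, TFPI2 and THBD, and PROCR in LNCaP.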

Other observations

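The genes next to F5, PROCR and TFPI gave a local view. Next to F5, SLC19A2, a thiamine transporter 28.2 kb away, rose with R1881 by 1.12 ± 0.06 (SE, adjusted p = 2.29e-10, edgeR) in LNCaP and by 0.57 ± 0.10 (adjusted p = 0.000481) in C4-2.

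Around PROCR, 5 genes were tested, 1 of them overlapping its span. Dual knockdown gave them changes of -0.04 to 0.58 in C4-2, where 1 passed against 23.5% of all genes. In LNCaP they were -0.01 to 0.40, where 1 passed against 14.2%. R1881 gave them changes of -0.94 to 0.50 in LNCaP, where 4 passed against 46.6% of all genes. MMP24, MMP24OS and ENSG00000279253 fell and EDEM2 rose. In C4-2 the R1881 changes were -0.39 to 0.30, where 1 passed against 32.8%. Around TFPI, only ITGAV, an integrin gene 783 kb away, passed the count filter in C4-2. Its dual knockdown change there was -0.27 (adjusted p = 0.0301, edgeR), where 23.5% of all genes passed. For dual knockdown in LNCaP the 5 tested lay between -0.81 and -0.10, with 1 passing, where 14.2% of all genes passed. Between the lines in siScr vehicle all 5 passed, where 58.9% of all genes did. ST13P2 (-4.94), LINC01090 (-4.10), CALCRL-AS1 (-3.32) and CALCRL (-1.76) were lower in C4-2, and ITGAV (0.33) was higher. The lower ones did not pass the count filter in C4-2, so their calls are descriptions.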
